A study of Mus musculus with 6 samples.

Results

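The genes described here are 10 rows of the count table, grouped under noncompact myelin and the contact between Schwann cell and axon: Prx, Drp2, Mag, Gjb1, Cldn19, Ncmap, Gldn, Nfasc, Cadm4 and Mal. They were listed by name, with no threshold on a measured value but with earlier results of these data known, and are 10 of 32285 genes counted. Single-cell RNA of sciatic nerve cells was counted in 23-week-old C57BL6/J mice kept on SD (3 libraries, 201 cells) or on HFD (2 libraries, 163 cells), the only difference between the groups that the labels name. Before sequencing with 10x Genomics 3′ chemistry, nerve cells were captured on beads that bind O4, a sulfated lipid on Schwann cells and oligodendrocytes. The labels name 3 samples per diet, and HFD replicate 3 was not analysed here. Whether replicates are separate animals is not said, and p-values therefore reflect the spread of these libraries alone, which may be technical.

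Myelinating Schwann cells wrap an axon with membrane that is mostly compacted, but cytoplasm remains in channels: the outer collar, the Schmidt-Lanterman incisures, the paranodal loops beside the node of Ranvier, and the inner collar that faces the axon. These channels carry their own proteins, distinct from those of compact myelin such as MBP and PMP22. Periaxin (Prx) and dystrophin-related protein 2 (Drp2) link the outer membrane to dystroglycan and the basal lamina, connexin 32 (Gjb1) and claudin 19 (Cldn19) form gap and tight junctions between myelin layers, and Mag, Cadm4, Nfasc and Gldn meet the axon at the internode, the paranode and the node.

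In the GRCm38 assembly with GENCODE annotation, Prx lies at chr7:27499324-27520214 (plus strand), Mag at chr7:30899176-30914873 (minus strand) and Cadm4 at chr7:24482023-24504539 (plus strand). Drp2 lies at chrX:134404551-134456573 and Gjb1 at chrX:101376378-101385629, both on the plus strand. Cldn19 lies at chr4:119255414-119262438 (plus strand) and Ncmap at chr4:135369576-135398227 (minus strand). Gldn lies at chr9:54286486-54341786 (plus strand), Nfasc at chr1:132564690-132741797 (minus strand) and Mal at chr2:127633226-127656695 (minus strand).

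Promoters are shown because the 10 genes were counted in the same cells, and because myelin genes are known targets of EGR2 and SOX10, zinc finger and HMG box factors of the Schwann lineage. RefSeq start-site windows of the GRCm38.p6 assembly, from 250 bases before to 50 after each start, were matched by symbol for 9 of the 10 members (17 windows, since several genes have more than 1 start). Each window was searched on both strands for GCGTGGG, a core of EGR sites, and for ACAAAG and AACAAT, cores of SOX sites. The 250 bases upstream of 3 starts follow, 5′ to 3′ on the strand of the gene, with the match in capitals: Prx, chr7:27499074-27499323, plus strand; Ncmap, chr4:135385673-135385922, minus strand; Gjb1, chrX:101383482-101383731, plus strand. In Prx the capitals are the EGR core read on the opposite strand, in Ncmap the EGR core, and in Gjb1 the SOX core ACAAAG.
Prx: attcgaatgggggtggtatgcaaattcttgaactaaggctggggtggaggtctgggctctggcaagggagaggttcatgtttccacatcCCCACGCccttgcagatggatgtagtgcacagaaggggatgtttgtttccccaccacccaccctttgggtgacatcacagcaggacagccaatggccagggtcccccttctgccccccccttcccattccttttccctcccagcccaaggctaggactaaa
Ncmap: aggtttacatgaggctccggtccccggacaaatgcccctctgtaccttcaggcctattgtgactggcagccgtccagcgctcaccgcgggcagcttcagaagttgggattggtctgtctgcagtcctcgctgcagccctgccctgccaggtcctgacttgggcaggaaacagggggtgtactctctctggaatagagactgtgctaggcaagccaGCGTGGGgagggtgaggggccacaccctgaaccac
Gjb1: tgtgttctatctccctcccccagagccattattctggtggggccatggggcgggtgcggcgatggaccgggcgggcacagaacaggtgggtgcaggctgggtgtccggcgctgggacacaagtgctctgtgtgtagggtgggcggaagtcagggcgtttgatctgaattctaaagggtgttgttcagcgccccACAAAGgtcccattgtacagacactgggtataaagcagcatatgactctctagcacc
GCGTGGG was found in 2 of the 17 member windows, against 5.04% of all 32851 windows in the reference. These belong to 2 of the 9 members matched, against 5.74% of genes. The matches stood 161 bases before the Prx start and 35 bases before the Ncmap start shown. The Ncmap and Gjb1 starts shown lie inside the annotated spans of their genes. ACAAAG was found in 4 of 17 member windows, against 18.7% of all windows. These 4 belong to 2 of the 9 members matched, Mag and Gjb1, against 21% of genes, and the match stood 57 bases before the Gjb1 start shown. The 2 Mag windows overlap and hold the same site, which is thus counted in both. AACAAT was found in 1 of 17 member windows, of Gjb1, against 10.7% of all windows. A match describes the letters of the window and shows no binding.

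The deposited table sorts the 364 cells into 5 named clusters: SCP (60 cells), mySC (92), Macrophages (143), repairSC (45) and nmSC (24). Libraries held 40 to 106 cells and 37744 to 349450 UMIs, counts of distinct molecules, and shared 0 cell barcodes. Median depth was 4230 UMIs per SCP cell and 626.5 per mySC cell. The library key carries 2 project numbers, read here as runs. SD replicates 1 and 2 shared run 1 with HFD replicate 1, and SD replicate 3 shared run 2 with HFD replicate 2. Levels are given as CPM, the UMIs of a gene scaled to all UMIs of the same cells. A 3′ protocol counts 1 end per molecule, so CPM were not divided by gene length and are compared between cells and libraries, not between genes.

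Checked against a list of 9 myelinating Schwann markers without any member, both SCP and mySC carried myelin RNA. The 9 markers together reached 31459 to 57800 CPM per library in SCP. In mySC they reached 26537 to 61896 CPM on SD and 7474 to 7676 CPM on HFD. The cluster named SCP held the most deeply read cells with high myelin RNA. In the repairSC cluster all 4 Schwann lineage markers, Sox10, S100b and Erbb3 among them, were at 0, which goes against its name. These cells were shallow, with 39 of 45 under 500 UMIs. In the nmSC cluster S100b was the only Schwann lineage marker with UMIs, at 146 and 203 CPM in 2 of 4 libraries. Nonmyelinating Schwann markers stood there at 81.3 to 584 CPM in all 4 libraries, with 3 of 6 genes seen, and fibroblast markers at 19089 to 68051 CPM.

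The mySC cluster was mixed. Its cells were divided, after the data had been seen, by whether the 9 myelin markers outnumbered the markers of macrophages, fibroblasts, endothelial cells, pericytes, neutrophils, mast cells, red cells and T cells combined. All 60 SCP cells and 77 of 92 mySC cells were led by myelin markers in this sense. The remaining 15 mySC cells held 64% of the cluster's UMIs and 0 UMIs of any member. They made up 39.9%, 4.56% and 0% of mySC UMIs in SD replicates 1 to 3, and 92.6% and 78.2% in HFD replicates 1 and 2. Neutrophil markers stood at 28566 and 44322 CPM in mySC of the HFD libraries and at 0 in mySC of the SD libraries. They were the most counted of these other lists in 2 and 1 of the remaining cells of HFD replicates 1 and 2. Red cell markers reached 339139 CPM in mySC of HFD replicate 1 and 0 in mySC of the other 4 libraries. They were the most counted in 1 cell. Macrophage markers stood in mySC at 8369, 88.4 and 0 CPM in SD replicates 1 to 3 and at 6358 and 7543 CPM on HFD. Mast cell markers reached 6732 CPM in mySC of SD replicate 1, where they led 1 cell.

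Over all cells the 10 genes gave 2303 of 1155624 UMIs, and 2293 of these (99.6%) lay in SCP and mySC, which held 37.3% of all UMIs. The other 212 cells held 10 UMIs in 7 cells, all in the Macrophages cluster. Mag gave 6 of these UMIs, in 4 cells of the HFD libraries that carried 223 to 324 UMIs of macrophage markers and 3 to 5 of myelin markers. Prx gave 3 and Drp2 gave 1, in 3 cells of 320 to 710 UMIs. All 10 members were at 0 in the 45 repairSC cells and in the 24 nmSC cells. For nmSC, at a median of 2693 UMIs per cell, 0 of 24 cells allows a share with a UMI of up to 12.5%. For repairSC, at a median of only 261 UMIs per cell, 0 of 45 cells allows up to 6.67%.

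**Figure D1:**
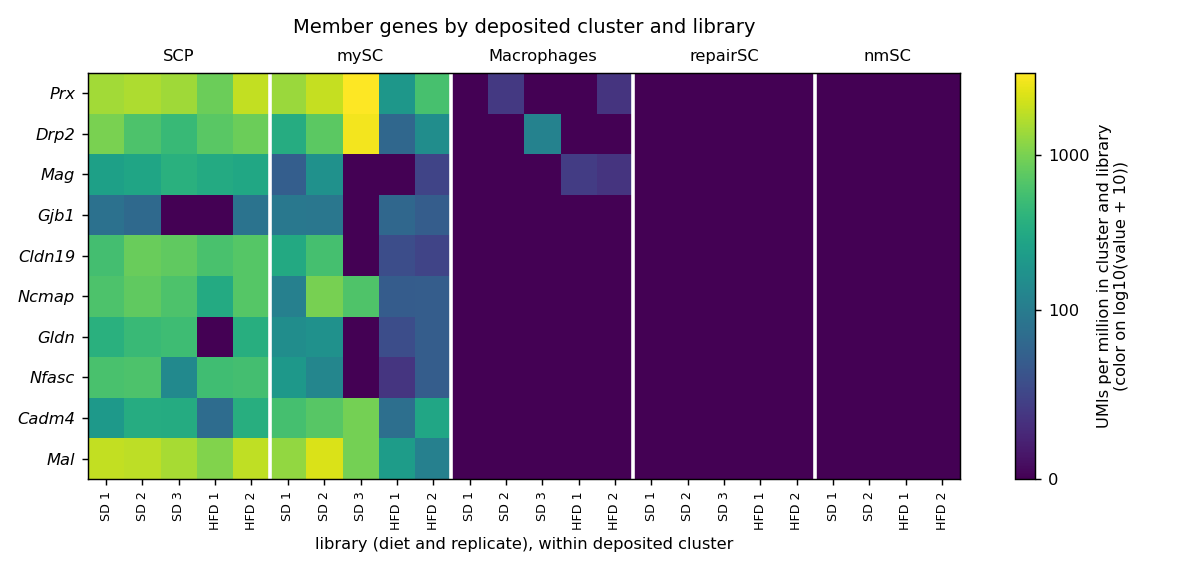
Levels of the 10 member genes (rows) in each library within each deposited cluster (columns), as CPM with color on a log10(value + 10) scale. SCP and mySC columns are mostly bright, while Macrophages, repairSC and nmSC are near 0. Within mySC both HFD columns are darker than every SD column for Prx, Drp2, Ncmap, Cadm4 and Mal. For Mag, Gjb1, Cldn19, Gldn and Nfasc the mySC column of SD replicate 3 is at 0.

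Periaxin is the scaffold of the outer Schwann cell membrane, and its gene is mutated in a recessive demyelinating neuropathy. Prx was counted in 58 of 60 SCP cells (96.7%, exact 95% interval 88.5 to 99.6). In SCP it stood at 1448, 1573 and 1398 CPM in SD replicates 1 to 3 and at 868 and 1888 CPM in HFD replicates 1 and 2. The HFD libraries thus lay on either side of the SD libraries. In the mySC cells led by myelin markers Prx was higher than in SCP in 5 of 5 libraries, at 2227, 2038 and 3224 CPM on SD and 2786 and 2717 CPM on HFD.

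Drp2 encodes the partner that binds periaxin to dystroglycan. It was counted in 52 of 60 SCP cells, at 1012, 633 and 482 CPM on SD and 735 and 875 CPM on HFD, so the HFD values fell inside the SD range. In mySC cells led by myelin markers its level spread widely, from 576 CPM in SD replicate 1 to 2901 CPM in SD replicate 3. The latter value rests on 9 UMIs, all in 1 of 7 cells (14.3%).

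Among the junction proteins, Cldn19, the claudin of tight junctions between myelin layers, was counted in 51 of 60 SCP cells at 564, 858 and 771 CPM on SD and 601 and 702 CPM on HFD. Gjb1, the connexin whose mutations cause X-linked Charcot-Marie-Tooth disease, gave only 28 UMIs in all. It was counted in 14 of 60 SCP cells and 7 of 92 mySC cells, and 0 of its UMIs came from SD replicate 3. At this depth no difference in Gjb1 between libraries could be read, since a count of 0 in the SCP cells of that library allows up to 145 CPM and the libraries with UMIs stood at 61.3 to 80.6 CPM.

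Ncmap, a small membrane protein of noncompact myelin, was counted in 47 of 60 SCP cells at 628, 776 and 627 CPM on SD and 334 and 702 CPM on HFD. Mal, a proteolipid of membrane rafts and vesicle traffic to myelin, was counted in 53 of 60 SCP cells at 1896, 1798 and 1494 CPM on SD and 1069 and 1854 CPM on HFD. For both genes HFD replicate 1 was the lowest library, and HFD replicate 2 lay within the SD range.

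The remaining 4 members meet the axon. Mag, a sialic acid binding adhesion protein of the inner collar, was counted in 36 of 60 SCP cells at 256, 286 and 386 CPM on SD and 334 and 299 CPM on HFD. Cadm4, the glial adhesion protein that binds axonal nectin-like proteins along the internode, was counted in 38 of 60 SCP cells at 218, 347 and 337 CPM on SD and 66.8 and 368 CPM on HFD. The low Cadm4 value rests on 1 UMI in the 3 SCP cells of HFD replicate 1. Nfasc encodes the paranodal neurofascin of Schwann cells as well as the nodal form of neurons, which 3′ counts do not separate. It was counted in 40 of 60 SCP cells at 602, 633 and 145 CPM on SD and 534 and 564 CPM on HFD, with SD replicate 3 the low library at 3 UMIs.

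Gldn, secreted gliomedin that gathers sodium channels at the node, was counted in 35 of 60 SCP cells. It stood at 384, 490.3 and 530.3 CPM on SD and at 0 and 368 CPM on HFD. The groups did not overlap, but HFD replicate 1 held 3 SCP cells, in which 0 UMIs allows up to 200.4 CPM, and HFD replicate 2 lay just below the lowest SD library. In mySC cells led by myelin markers Gldn stood at 269, 185 and 0 CPM on SD and 398 and 209 CPM on HFD, where the groups overlapped.

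**Figure D2:**
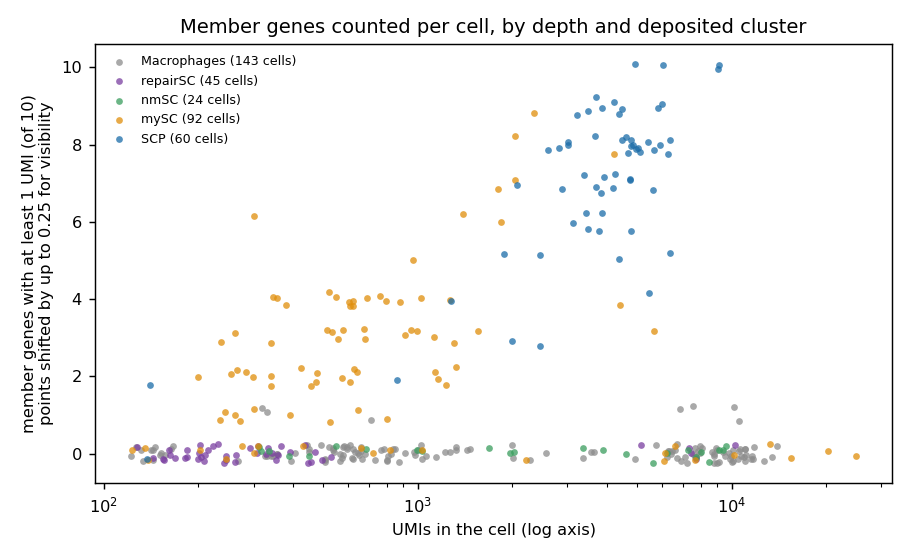
Each point is 1 cell, with its UMIs on a log axis and the number of the 10 member genes with at least 1 UMI on the vertical axis, colored by deposited cluster. SCP cells lie at the upper right with a median of 8 members per cell, mySC cells have a median of 2, and the deep mySC cells with no member lie along the bottom beside the macrophages.

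SCP cells held most of the 10 RNAs together, and the shallower mySC cells fewer. A SCP cell had a median of 8 members with a UMI, 53 of 60 cells had at least 5, 4 had all 10, and 1 cell, of 137 UMIs, had none. A mySC cell had a median of 2, and 23 of 92 had none. Among the 77 mySC cells led by myelin markers the median was 3 and 8 had none, at a median of 260.5 UMIs in those 8. Over 21 sums of a library and cluster, each member was correlated with the other 9 summed, on log2(CPM + 10). Pearson r was 0.97 for Prx and Mal, 0.95 for Ncmap and Cadm4, 0.93 for Drp2, 0.84 for Cldn19, 0.83 for Nfasc, 0.77 for Mag and Gldn, and 0.69 for Gjb1. These points share libraries, and the 2 myelin clusters against the other 3 set most of the spread, so the values are a description. Gjb1, with the lowest r, is also the gene with the fewest UMIs.

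SCP and mySC did not hold the members in the same proportions. The clusters were drawn with these genes among others, so the comparison is a description without a test, and it was made with the mySC cells led by myelin markers. Cadm4 was higher in mySC in 5 of 5 libraries, with a log2 ratio of 1.68 over all libraries pooled (95% counting interval 1.17 to 2.18). In HFD replicate 1 the Cadm4 ratio rests on 5 UMIs in mySC and 1 in SCP. Prx was also higher in 5 of 5, by 0.55 (0.27 to 0.83), and Gjb1 in 3 of 3 libraries with a ratio, which lay at 0.60 to 1.37. Pooled over those 3 libraries the Gjb1 ratio was 0.90 (-0.53 to 2.21), from 8 and 16 UMIs, and over all libraries, with HFD replicate 1 at 0 in SCP, 1.52 (0.31 to 2.69). Pooled over all libraries, Nfasc was lower, at -1.27 (-2.14 to -0.50), as in 4 of 4 libraries with a ratio, and Mag at -1.45 (-2.81 to -0.33), as in 3 of 3. Cldn19 was at -0.59 (-1.20 to -0.02) and lower in 4 of 4 libraries with a ratio, over which the interval included 0 (-1.12 to 0.07). Gldn was at -0.76 (-1.65 to 0.03), Ncmap at -0.35 (-0.93 to 0.18), Drp2 at -0.06 (-0.53 to 0.39) and Mal at 0.17 (-0.12 to 0.46), intervals that include 0. With every mySC cell included, each pooled ratio lay lower. The sign turned for Prx, to -0.92 (-1.20 to -0.65), and for Mal, to -1.30 (-1.59 to -1.02). Cadm4 fell to 0.21 (-0.30 to 0.71), below SCP in 1 of 5 libraries, and Gjb1 to 0.05 (-1.17 to 1.22). Nfasc lay at -2.74. The compact myelin genes Mbp and Pmp22 also lay higher in the mySC cells led by myelin markers, at 1.11 (0.95 to 1.28) and 0.76 (0.65 to 0.88). Each was above SCP in 4 of 5 libraries. With every mySC cell included they lay at -0.33 and -0.71. Intervals cover counting error only.

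**Figure D3:**
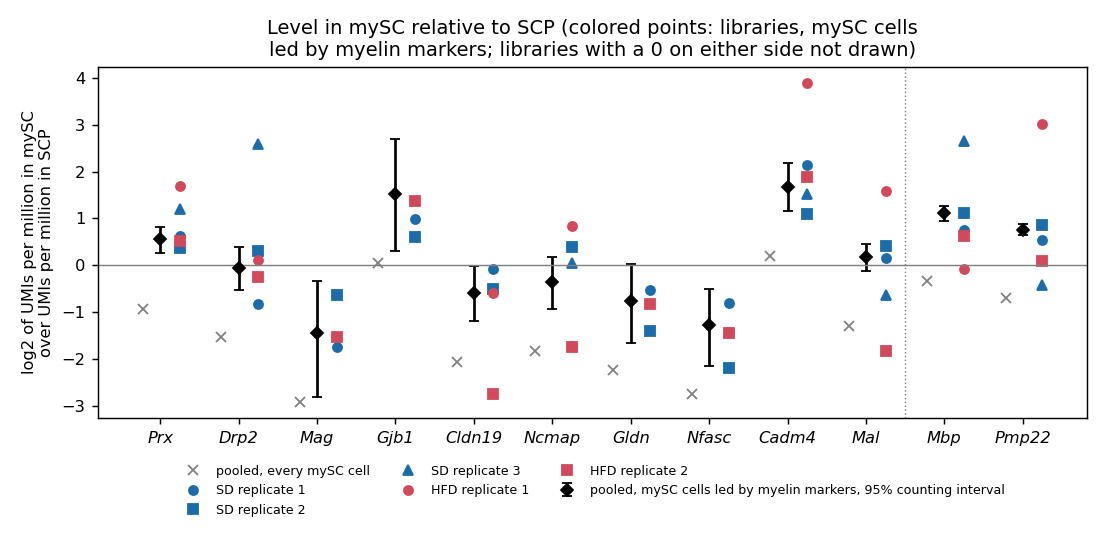
Log2 ratio of CPM in mySC over SCP for the 10 members and, right of the dotted line, the compact myelin genes Mbp and Pmp22. Diamonds pool all libraries over mySC cells led by myelin markers with 95% counting intervals, crosses pool every mySC cell, and colored points are single libraries. Cadm4 and Prx lie above 0 in each of 5 libraries, and Nfasc below 0 in the 4 libraries drawn.

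The contrast between Cadm4 and Nfasc was also present at equal depth. When each cell was thinned to 500 UMIs, leaving out 2 SCP cells and 31 mySC cells led by myelin markers as too shallow, Cadm4 was expected in 14.4% of SCP cells and 38.2% of mySC cells. Nfasc was expected in 22.4% and 9.22%, and Mag in 12.8% and 5.15%. Prx was expected in 52.2% and 57%, and Mal in 51.5% and 55.7%. Before thinning, 63.3% of the 60 SCP cells and 46.8% of the 77 mySC cells had a Cadm4 UMI, and 66.7% and 11.7% a Nfasc UMI. In the Macrophages cluster, at a median of 1064 UMIs, 0 to 0.61% of thinned cells had a UMI of any member.

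The series compared SD with HFD, and the members were compared first over all cells. HFD replicate 1 was the lowest library for 9 of the 10 members (all but Gjb1), and HFD replicate 2 lay close to SD replicate 1. Mal stood at 684, 906 and 901 CPM on SD and 91.6 and 523 CPM on HFD. Prx stood at 577, 789.5 and 1033 CPM on SD and 77.3 and 605 CPM on HFD. Gldn stood at 125, 181 and 291 CPM on SD and 5.72 and 107 CPM on HFD. The groups did not overlap for Mal and Gldn, and for Prx they overlapped through HFD replicate 2.

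**Figure D4:**
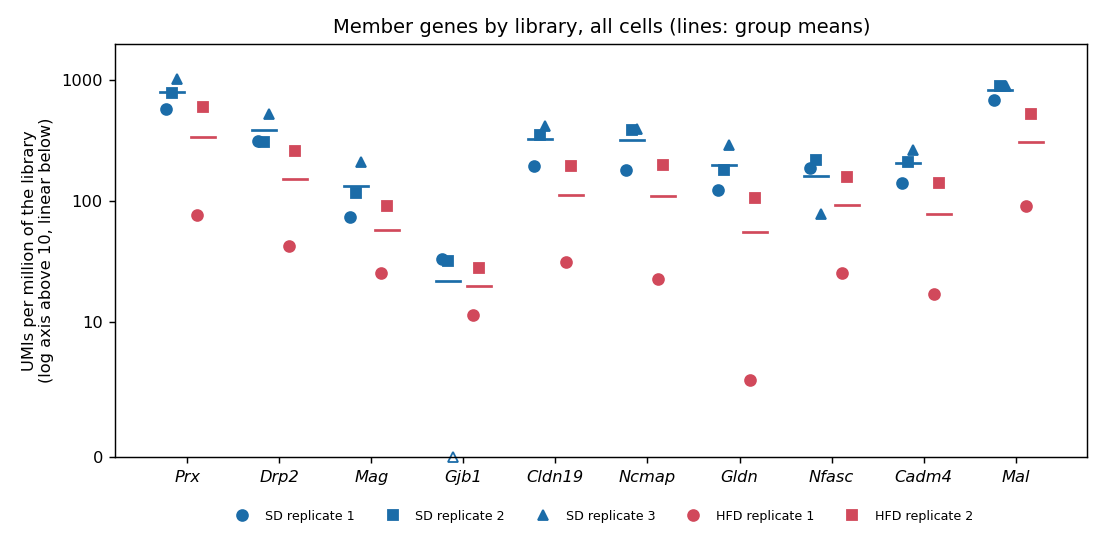
CPM of each member over all cells of a library, on a log axis above 10, with SD libraries in blue, HFD libraries in red and short lines for group means. HFD replicate 1 is the lowest point for each member except Gjb1, where SD replicate 3 is at 0 (open symbol).

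In the edgeR quasi-likelihood test of the summed counts, 9 of 10 members passed the count filter (Gjb1 did not) and 0 of 9 were called at a Benjamini-Hochberg adjusted p under 0.05, against 0.0907% of 5510 genes tested. At an unadjusted p under 0.05, 0 of 9 members were lower, against 1.38% of genes, and 0 were called with DESeq2. That fit does not separate the 2 runs. With run as a term, 8 of 9 members (all but Nfasc) were lower at an unadjusted p under 0.05, against 5.7% of genes, and 0 were called after adjustment, with the lowest edgeR adjusted p at 0.075 for Gldn. The median of the 9 was then -1.84 against 0.04 for all genes. In the fit on diet alone all 9 values lay below SD, as did 48.3% of all genes tested. The median of the 9 was -1.22 on the log2 scale against 0.02 for all genes, from -0.81 ± 0.70 (SE) for Nfasc to -1.63 ± 0.84 for Gldn. The fitted log2 fold change was -1.32 ± 0.63 for Mal, -1.11 ± 0.69 for Prx and -1.19 ± 0.68 for Drp2, with edgeR adjusted p between 0.943 and 0.951 over the 9. Both HFD libraries lay below every SD library for 4 of 9 members (Drp2, Cldn19, Gldn and Mal), a pattern found in 12% of all genes tested.

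HFD replicate 1 and the makeup of the libraries moved with this difference. Without HFD replicate 1 the median of the 9 members was -0.41, and without HFD replicate 2 it was -2.91 with Gldn called (log2 fold change -4.52, edgeR adjusted p = 0.0389). Within run 1 the log2 ratio of HFD to the mean of SD was -3.14 for Prx and -3.12 for Mal. Within run 2, with 1 library per diet, it was -0.77 and -0.78. Nfasc, at -2.99 in run 1, was at 1.02 in run 2, where SD replicate 3 held 3 Nfasc UMIs. Of the members with a ratio, Nfasc alone was above 0 in either run. SCP and mySC cells together made up 55, 56.8 and 32.5% of cells on SD and 19.3 and 35.8% on HFD. The SCP cluster alone held 26.3, 31.7 and 55.0% of UMIs on SD and 4.28 and 27.4% on HFD. In sums over all cells, fewer cells of a type and less RNA per cell cannot be told apart.

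Within SCP, the difference was small against its error. Of 9 members tested, 0 were called by edgeR, against 0% of 1019 genes, with 0 members lower at an unadjusted p under 0.05, also with run as a term, and 0 called with DESeq2. Fitted values lay below SD for 6 of 9 members, against 52% of genes, with a median of -0.13 against -0.02 for all genes. They ran from -0.87 ± 0.66 for Gldn to 0.13 ± 0.62 for Nfasc. For Prx the value was -0.06 ± 0.46, so an interval of 2 SE reached from -0.99 to 0.86 and left room for changes of almost 1 log2 unit in either direction. For Mal the interval reached from -1.12 to 0.64. Gldn was the only member tested with both HFD libraries below every SD library, a pattern found in 7.75% of genes. Without HFD replicate 1, which held 3 SCP cells, 2 of 9 members lay below SD, the median was 0.11 and Gldn was at -0.29. Without HFD replicate 2 Gldn was at -7.23, a value fitted on 0 UMIs in the remaining HFD library.

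Within the deposited mySC cluster both HFD libraries were below every SD library for Prx, Drp2, Ncmap, Cadm4 and Mal. Prx stood at 205 and 592 CPM on HFD against 1337 to 3224 CPM, and Mal at 234 and 114 CPM against 967 to 2298 CPM. For Mag, Gjb1, Cldn19, Gldn and Nfasc the groups overlapped, with SD replicate 3 at 0. The share of all genes with both HFD libraries lower was not computed in mySC. In the mySC cells led by myelin markers Prx and Mal overlapped between diets, Prx at the values given above. Mal stood there at 2111, 2408 and 967 CPM on SD and 3183 and 523 CPM on HFD. These HFD values came from 3 and 12 cells. Cadm4 stood at 959.7, 741 and 967 CPM on SD and 995 and 1359 CPM on HFD in those cells. Both HFD libraries lay above SD there, where the whole cluster had both below. The values of HFD replicate 1 and SD replicate 3 rest on 5 and 3 UMIs. Gjb1 also had both HFD libraries above SD in those cells, and the share of all genes with this pattern was not computed. No test was run in mySC alone.

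The choice of cells also moved the values when SCP and mySC were summed. With every cell of both clusters, 0 of 9 members were called by edgeR (and 0 with DESeq2), against 2.14% of 1779 genes, of which 37 of 38 were higher on HFD. Calls in the lower direction made up 0.0562% of genes and held 0 members. With run as a term, 1 member (Gldn) was lower at an unadjusted p under 0.05, against 1.8% of genes. All 9 members lay below SD, against 47.3% of genes, at a median of -0.57 against 0.05 for all genes. Both HFD libraries lay below every SD library for 5 of 9 members (Drp2, Cldn19, Gldn, Cadm4 and Mal), against 18.6% of genes. With only the cells led by myelin markers, 7 of 9 lay below SD against 54% of genes, at a median of -0.17 against -0.04. There both HFD libraries lay below every SD library for 1 of 9 (Gldn), against 7.5% of genes. Again 0 of 9 members were called by edgeR, and 0 of 1587 genes (0%), of which 40 had an unadjusted p under 0.05. Among those lower on HFD at that level (1.07% of genes) were 0 members.

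In those cells Prx stood at 1643, 1715 and 1635 CPM on SD and 1350.1 and 1971 CPM on HFD, with a log2 fold change of -0.06 ± 0.37. Mal stood at 1950.2, 1985 and 1426 CPM on SD and 1600.2 and 1722 CPM on HFD, with -0.20 ± 0.37. Drp2 stood at 903, 680.5 and 797 CPM on SD and 750.1 and 861 CPM on HFD, with -0.05 ± 0.46. For these 3 genes the groups overlapped. Gldn was the member farthest from 0, at 355, 397 and 461 CPM on SD and 100 and 353 CPM on HFD, with -0.63 ± 0.54 and an edgeR adjusted p of 0.998. HFD replicate 1 entered this sum with 6 cells and 19998 UMIs, so its Gldn value rests on 2 UMIs.

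**Figure D5:**
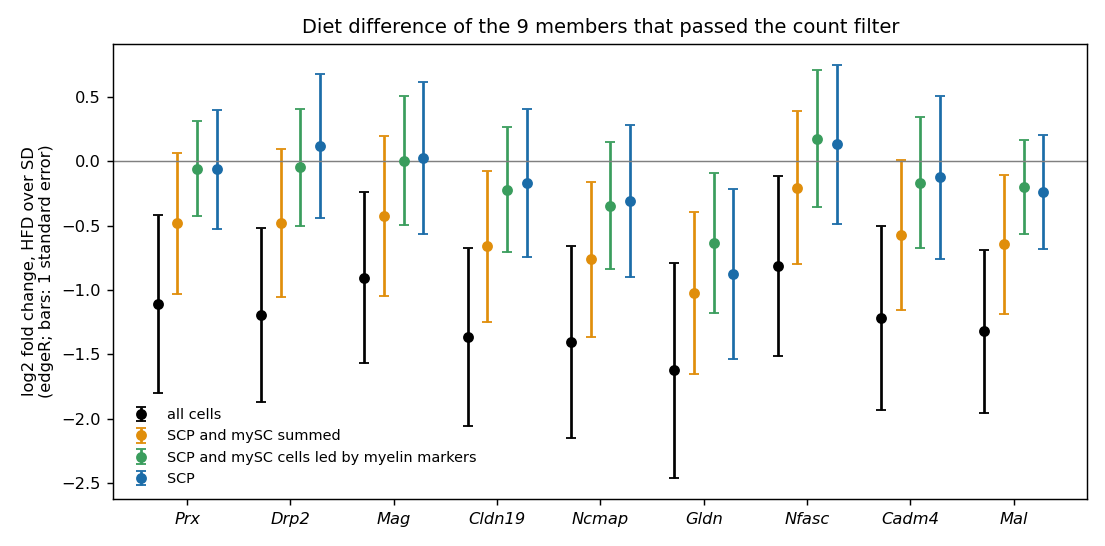
Fitted log2 fold change of HFD over SD for the 9 members that passed the count filter, with bars of 1 standard error, over all cells (black), SCP and mySC summed (orange), the cells of both clusters led by myelin markers (green) and SCP alone (blue). Black points lie between -1.63 and -0.81, and green and blue points lie nearer to 0, with Gldn lowest in each of the 4 fits.

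Other genes of the same structures were read from lists drawn up by name. Over all cells 0 genes of any list were called by edgeR, as against 0.0907% of all genes. Of all genes tested, 48.3% lay below SD, and their median was 0.02. Of the dystroglycan and basal lamina genes, 13 of 14 tested lay below SD at a median of -0.74, with Dtna, encoding a dystrobrevin, at -1.73 ± 0.97, Lama4, a laminin chain, at -1.13 ± 0.70 and Dmd, dystrophin, at -1.03 ± 0.68. Of the incisure and paranode junction genes, 11 of 14 lay below SD at a median of -0.55, with Cnp, an enzyme of noncompact myelin, at -1.56 ± 0.71, Mpdz, a PDZ scaffold, at -0.88 ± 0.53 and Jam3, a junctional adhesion molecule, at -1.01 ± 0.65. Of the axoglial and nodal adhesion genes, 11 of 12 lay below SD at a median of -0.29. Among these Cadm3 was at -0.54 ± 0.73, Sptbn1, a spectrin, at -0.43 ± 0.54 and Cntnap2 at -2.76 ± 2.49, although only 2.92% of Cntnap2 UMIs came from SCP and mySC. Of the 8 tested regulators of myelin genes 4 lay below SD, with Sox10 at -1.43 ± 0.71, Nab2 at -1.27 ± 0.69 and Zeb2 at 0.63 ± 0.42. All 7 compact myelin genes lay below SD, with Mbp at -2.28 ± 0.75 and Pmp22 at -1.06 ± 0.47.

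Within SCP these lists again had 0 genes called by edgeR, against 0% of genes tested. All 6 compact myelin genes tested lay below SD, Mbp at -0.60 ± 0.35 and Pmp22 at -0.28 ± 0.33. The other lists stood at or above SD, with 5 of 12 dystroglycan and basal lamina genes, 3 of 9 junction genes, 0 of 8 axoglial adhesion genes and 0 of 5 regulators below it. Of all genes tested, 52% lay below SD. The medians of these 4 lists were 0.03, 0.33, 0.69 and 0.51, against -0.02 for all genes. Dmd stood at 0.41 ± 0.52, Mpdz at 0.54 ± 0.62, Cadm3, an adhesion partner of Cadm4, at 0.68 ± 0.62 and Sox10 at 0.01 ± 0.64.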

How the data were processed

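The authors deposited raw counts of UMIs for 32285 genes in 364 cells, with a table of each cell's library and cluster name and a key of libraries. The submitters' processing notes name Cell Ranger 3.1.0 and the mm10 build. How cells were filtered and doublets treated before deposit is not given in the sources used here, and no doublet caller was run. Libraries named as controls were taken as SD, the diet left once HFD had been matched by name.

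UMIs were added up for each library over all cells, over SCP, and over SCP and mySC, with at least 3 cells per library. Diets were compared with edgeR 4.0.16 (R 4.3.3), using TMM scaling, filterByExpr and a robust quasi-likelihood fit on diet alone, and p-values were Benjamini-Hochberg adjusted over all genes kept. Standard errors were taken from the fold change and the F statistic and are approximate. CPM divide by all UMIs of the cells named, without TMM. The script was tested on simulated counts with a fixed spread for all genes and no difference in run or cell makeup. This checks the code, not its error rate in these libraries. The alternatives tried were DESeq2 1.42.0, RLE scaling, no filter on counts, the replicate number as a block, run as a term, each library left out, cells of at least 500 UMIs, at least 10 cells per library, and leaving out 7 cells led by neutrophil, mast or red cell markers. The comparison of cells led by myelin markers, and the last of these alternatives for SCP and mySC summed, were added after seeing the data.

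The text names the 10 members, 3 genes of lowest p over all cells from each related list, the 10 genes of most like pattern, and reference myelin genes, some of which are not reported here. Members and lists were chosen with earlier results of these data known. Libraries held 37744 to 349450 UMIs. Shares carry exact 95% intervals, zeros a floor of 3 counts, and both reflect counting error alone.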

Additional observations from a re-analysis of the deposited data

How the results depend on the processing

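Over all cells 0 of 9 members were called under RLE scaling, DESeq2, no filter, run as a term, cells of at least 500 UMIs and without cells of other types. With the replicate block 1 member was called (Mal, log2 fold change -1.67, edgeR adjusted p = 0.0454), and leaving out 1 library gave 0 to 1 members called. Whether replicate numbers pair the samples is not known, since the labels give only a number. Deviations from the group means correlated at 0.282 for replicate 1 and -0.0865 for replicate 2. These values cannot decide it, because the deviations of the 2 HFD libraries are equal and opposite. The block changed no member's call within SCP or in both clusters summed. The count of all genes called over all cells moved from 5 to 64 with the block, 57 with run as a term, 47 without a filter, 9 with DESeq2, 0 without cells of other types, and 0 to 54 with 1 library left out. In both clusters summed it moved from 38 to 77, 106 and 91 with the block, run and no filter, 6 without cells of other types, 0 in cells led by myelin markers, and 15 to 199 with 1 library left out. In SCP it was 0 to 4.

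Within SCP the signs of members near 0 turned, and the cause was not tested. Among libraries of at least 10 SCP cells, of which 3 remain, Prx was at 0.33, Cadm4 0.42, Cldn19 0.0086, Ncmap 0.0134, Mal 0.0031 and Nfasc -0.13. With the replicate block Drp2 was at -0.0077 and Nfasc -0.23. Mag was at -0.0033 with DESeq2, -0.0339 without a filter and -0.0723 with run as a term. With 1 library left out, values ran from -1.01 to 0.38 for Prx, -0.26 to 0.46 for Drp2, -0.14 to 0.14 for Mag, -1.27 to 0.072 for Ncmap, -0.22 to 0.37 for Nfasc, -7.23 to -0.29 for Gldn, -2.33 to 0.35 for Cadm4 and -0.96 to 0.11 for Mal. In both clusters summed they ran from -1.28 to 0.0225 for Prx and -0.85 to 0.13 for Nfasc, and in cells led by myelin markers Mag was at 0.0050 and Nfasc at 0.18. A left-out HFD library leaves a lone HFD sample, assumed to vary like SD. Over all cells no member's sign turned under these alternatives. Of the 10 genes of most like pattern, 6 were among the 10 highest with log2(CPM + 100). Depth limits Gjb1, Mag and Gldn most, and SCP of HFD replicate 1 held 3 cells.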

Other observations

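The genes whose levels most resembled the 10 members summed were ranked by Pearson r of log2(CPM + 10) over the 21 sums of a library and cluster, among genes with at least 50 UMIs. Of the 10 highest, 8 are given. Dusp15, a dual-specificity phosphatase, Mbp and Fam178b stood at 0.97. Pllp, plasmolipin of myelin membrane, and Kif1a, a kinesin motor of axonal transport in neurons, stood at 0.96. Plekhb1, the metallothionein Mt3 and Cnp stood at 0.94. All UMIs of Dusp15 (119), Fam178b (202), Pllp (238) and Mt3 (213) came from SCP and mySC, as did 96.7% of the 120 UMIs of Kif1a. The points share libraries and depth, so these values describe likeness in these libraries.

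Within SCP the dystroglycan partners of periaxin and Drp2 were counted in most cells: Utrn in 57 of 60, Dmd in 52, Dag1 in 50 and Sgcd in 42. Dtna, the dystrobrevin, was counted in 21 of 60 SCP cells, and all of its 59 UMIs came from SCP and mySC. Of the axoglial partners, Ank3 was counted in 50 SCP cells and Cadm3 in 38, while Cntnap1, which encodes the axonal paranodal protein Caspr, gave 2 UMIs in all.

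Among regulators of myelin genes, Pou3f1 was counted in 34 of 60 SCP cells, Sox10 in 38 and Egr2 in 29. Of all Egr2 UMIs, 57.9% came from SCP and mySC, against 100% for Sox10.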
